A study of Homo sapiens with 4 samples.

Results

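Fragments of collagen mRNAs were examined in total small RNA libraries of HCT116 cells, a human colon carcinoma cell line. The collagen genes were taken as every gene of the deposited table named COL, a number, A and a number, with COL5A3 left out, which gave 43 of 26485 genes. The cells expressing CD95L had been infected with pLenti-CD95L, a lentivirus that encodes CD95L (gene symbol FASLG), and the vector cells with empty pLenti, with 2 libraries for each. Both groups carried the Drosha knockout (Drosha k.o.), made in 1 clonal line, and so lacked the nuclease that starts the processing of most microRNAs. Per the methods, the CD95L construct used in HCT116 cells encoded a mutant that cannot bind CD95, with a stop codon behind its start codon, under a CMV promoter. Both groups were selected with 3 µg/mL puromycin for 2 days and were collected at 50 h. The methods count these 50 h from plating, and the cells had been infected days before that. The experiment was done in duplicate, but the step at which the duplicates parted was not given, so the p-values speak of the spread among these 4 libraries only, which may be technical. The titles of both vector libraries carry the mark (# 2), which neither CD95L title has, and no source explains it, so CD95L expression and a batch split along the same line cannot be told apart.

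Collagens are built from 3 α chains wound into a triple helix, and each chain repeats a triplet that begins with glycine, often followed by proline and hydroxyproline. Fibrillar collagens form the fibres of connective tissue, network collagens form sheets such as those of basement membranes, and FACIT collagens sit on the surface of fibres. Carcinoma cells of epithelial origin make basement membrane and transmembrane collagens, whereas most fibrillar collagen of a tumour comes from fibroblasts. In a small RNA library an mRNA appears as short fragments, so a collagen read here reports a piece of its mRNA, and neither a protein nor the level of the intact mRNA.

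Collagen mRNAs share stretches of the length of such a fragment, both within the glycine repeat and outside it. This bears on how reads can be assigned, and the following stretches are shown for that reason. Across the 43 genes, 81 pairs shared an identical coding stretch of at least 20 bases. The longest, of 47 bases, was shared by COL6A5 and COL6A6 and is not shown. Each stretch below was read 5′ to 3′ on the coding strand from hg38 within a single coding exon of both genes, and capitals mark glycine codons in frame.
COL1A1 and COL1A2: cagaacatcacctaccactgcaagaacagc
COL1A2 and COL4A5: ctGGGccccaaGGTcctcctgg
COL18A1 and COL9A3: cccGGCccccccGGCcccccagg
COL23A1 and COL9A1: cctGGCccccctGGCcccccagg
COL1A1 and COL6A3: ctGGTcctgctGGTcctccagg
The first stretch, of 30 bases, lay at chr17:50185907-50185936 (minus strand) in COL1A1 and at chr7:94429272-94429301 (plus strand) in COL1A2, outside the glycine repeat. COL2A1 holds these 30 bases too, within stretches of 34 bases shared with COL1A1 and 35 bases shared with COL1A2. The stretch of 35 bases lay at chr12:47974213-47974247 (minus strand) in COL2A1. The COL1A2 stretch shared with COL4A5 lay within the repeat at chr7:94410427-94410448. In COL4A5 that stretch lay at chrX:108668475-108668496 on the plus strand. The stretch shared by COL1A1 and COL6A3 lay at chr17:50192500-50192521 in COL1A1 and at chr2:237352556-237352577 in COL6A3, both on the minus strand. The GC-rich stretches lay at chr21:45504500-45504522 in COL18A1 and chr20:62817579-62817601 in COL9A3 (both plus), and at chr5:178247782-178247804 in COL23A1 and chr6:70270321-70270343 in COL9A1 (both minus). All but the first of the stretches shown held 2 glycine codons. Taken over whole transcripts, however, most of the sequence was distinct. Of all 20-base words in a member's transcript, 1.14 to 9.55% occurred at more than 1 place in the genome (median 2.66% over 43 genes), with 3.74% for COL1A2 and 3.03% for COL8A2. A total of 41 of the 43 shared at least 1 such word with another collagen gene. By default HTSeq leaves out reads that align at several places, and whether that default was kept was not given.

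The 4 libraries held 22488145 to 25163566 gene reads. Values are CPM, reads per 1000000 reads counted to genes, and a count of 0 allows up to 0.119 to 0.133 CPM (3 reads per library). FASLG itself stood at 94.9 and 90.5 CPM in the CD95L libraries, against 1.16 and 2.94 CPM in the vector libraries. DROSHA fragments were seen in all 4 libraries, at 10.1 and 13.6 CPM against 13.6 and 10.4 CPM. Intervals below cover counting error only, since PCR copies cannot be told from separate molecules.

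Collagen fragments were a small part of the libraries, and COL2A1 and COL5A2 made up most of them. The 43 genes together accounted for 0.0525 and 0.0895% of the reads of the CD95L libraries, against 0.0603 and 0.0577% of those of the vector libraries. COL2A1, the chain of type II collagen of cartilage, supplied 43.8 and 51.2% of the collagen reads in the CD95L libraries and 47.8% in each of the vector libraries. With COL5A2, a chain of the type V collagen that nucleates fibres, the share came to 55.4 and 63.4% against 60.5 and 62.3%. No member was at 0 in any library, and 40 of the 43 averaged 1 CPM or more and were tested. The 3 below this limit were COL9A1, COL10A1 and COL8A1.

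Levels were compared between genes only per kb of exon, with the length taken over all annotated exons of a gene. In the transcript marked as canonical, COL13A1 has 3148 bases instead of 11509, and COL17A1 5612 instead of 6989. The order below COL5A2 and the size of the chain ratios given later thus depend on this choice of length. COL2A1 (chromosome 12, 47972967 to 48004554, minus strand) led with 47.0 CPM per kb as a mean over the 4 libraries, and COL5A2 (chromosome 2, 189031898 to 189225312, minus strand) followed with 11.3 CPM per kb. Next came COL17A1 at 2.96 CPM per kb, a transmembrane collagen that anchors epithelial cells at hemidesmosomes, and COL6A2 at 2.78 CPM per kb, a chain of the type VI microfibrils. COL1A1 stood at 1.96, COL6A1 at 1.71 and COL13A1 at 1.35 CPM per kb, and the 3 lowest were COL8A1 at 0.0668, COL9A1 at 0.0857 and COL6A3 at 0.103 CPM per kb. The order thus mixed chains known from cartilage and connective tissue with chains of epithelium. COL2A1 and COL5A2, which lead it, had reads that came to a narrow share of those of COL5A3, the gene left out. Over the libraries that share was 1.0 to 1.19% for COL2A1 and 0.275 to 0.304% for COL5A2. What links these genes was not tested.

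**Figure D1:**
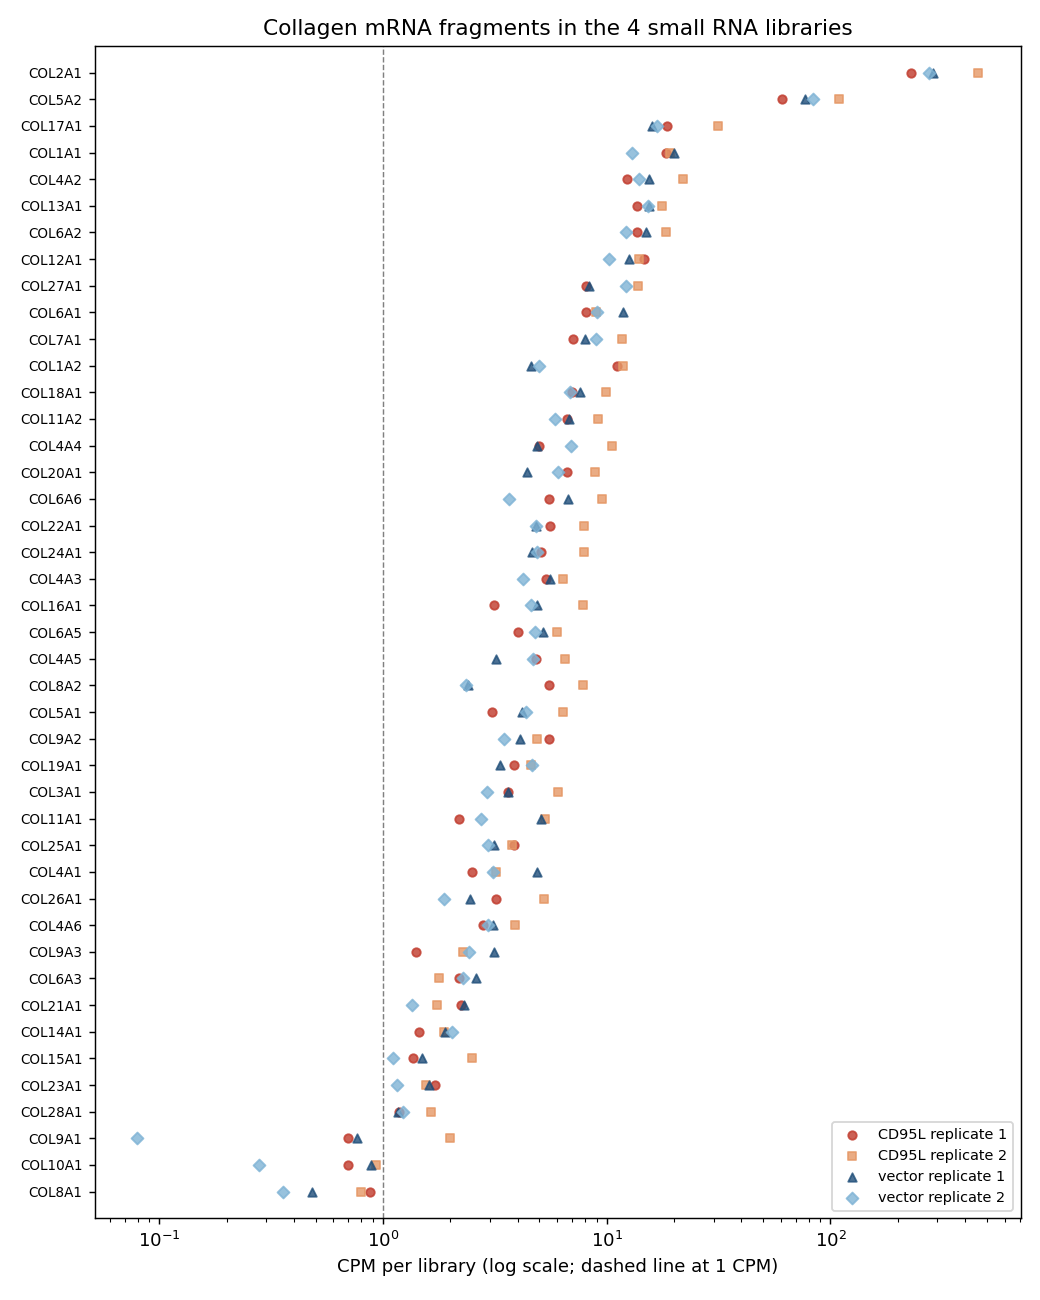
CPM of each of the 43 collagen genes (rows, ordered by mean CPM) in the 2 CD95L libraries (red circles, orange squares) and the 2 vector libraries (blue triangles and diamonds), on a log scale with a dashed line at 1 CPM. COL2A1 and COL5A2 stand apart from the rest, and CD95L replicate 2 is to the right of CD95L replicate 1 for 34 of the 40 genes tested.

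CD95L cells were then compared with vector cells to ask whether fragments of endogenous collagen mRNAs differed once CD95L was expressed. By limma on log2(CPM + 1), adjusted over all 16127 genes that averaged 1 CPM or more, none of the 40 collagen genes passed an adjusted p of 0.05. The background was 0.00620% of all genes called higher, which was FASLG alone, and no gene called lower. In such bulk libraries fewer expressing cells and less RNA per cell cannot be told apart. At an unadjusted p below 0.05, 3 members were higher in CD95L cells (COL1A2, COL8A2 and COL26A1) and none lower, beside 5.38% of all genes, of which 2.85% were higher and 2.52% lower. On whole reads recovered from the CPM values, edgeR called COL1A2 and COL8A2 higher, beside 0.0496% of all genes higher and 0.397% lower, and DESeq2 called the same genes, beside 0.0434% higher and 0.186% lower. Differences leaned upward, and this lean was not itself tested. Of the 40 members, 33 were positive and 7 negative, with a median log2 difference of 0.20. For all genes the median was -0.0052, with 49.2% positive. For 12 of the 40, which is 30.0% beside 16.0% of all genes, the CD95L libraries were both higher than either vector library. For 4 of the 40 (COL6A1, COL6A3, COL9A3 and COL14A1) they were both lower, beside 19.0% of all genes. The count of members without overlap and higher was 17 under TMM factors, DESeq2 size factors or upper quartile scaling, beside 18.1, 17.9 and 19.7% of all genes, and 11 with the 10 most abundant genes left out of the totals, beside 14.2%. The median of 0.20 rested on CD95L replicate 2. Without that library it was 0.0035 with 20 of 40 positive, beside -0.076 and 40.7% positive for all genes, and without CD95L replicate 1 it was 0.42 with 34 of 40 positive, beside 0.062 and 9165 of 16255 positive for all genes.

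**Figure D2:**
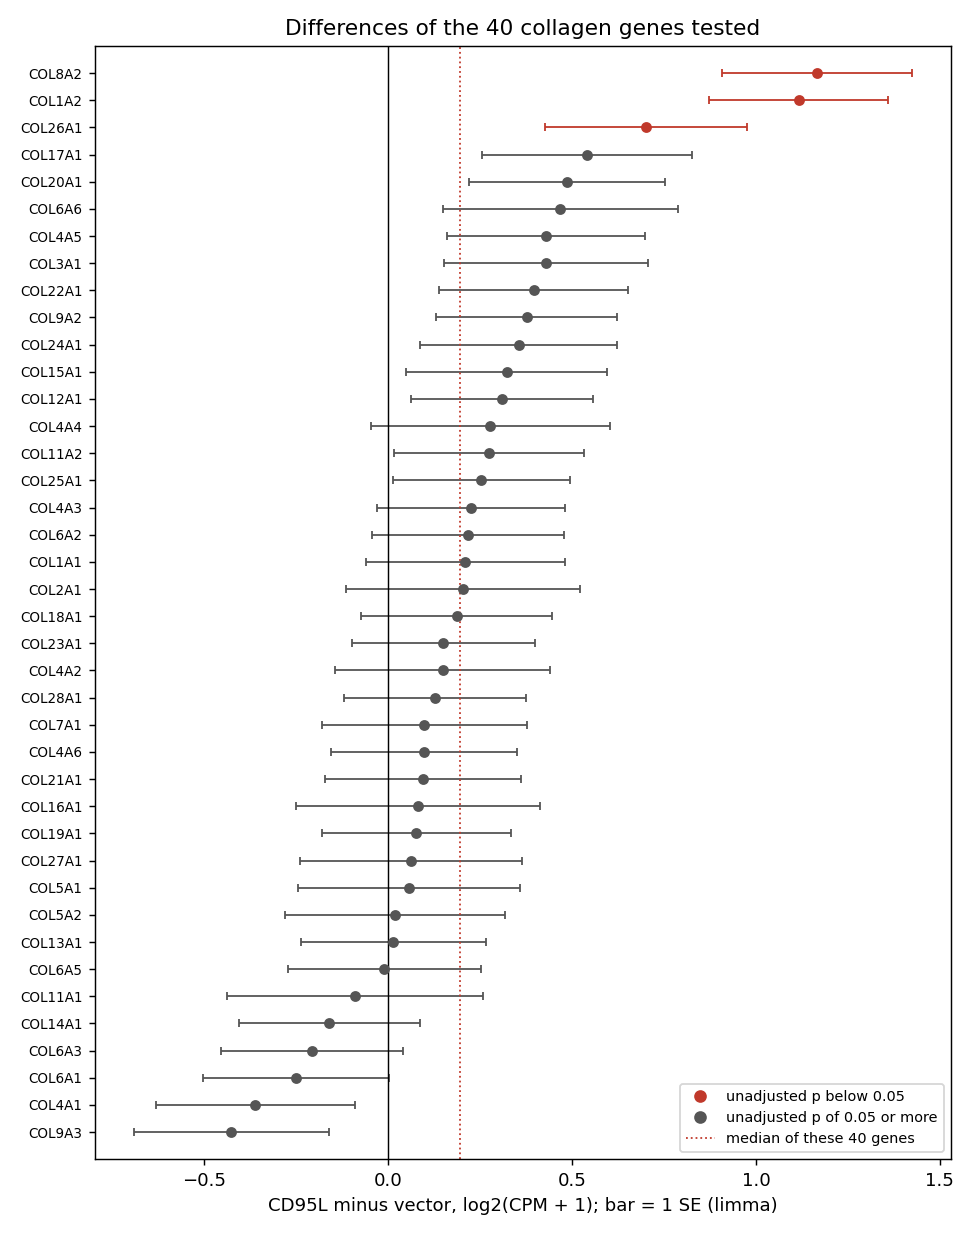
Difference of each of the 40 collagen genes tested (rows), CD95L minus vector in log2(CPM + 1), with bars of 1 SE from limma, red where the unadjusted p is below 0.05. COL8A2, COL1A2 and COL26A1 lie farthest to the right, and the others run from -0.43 (COL9A3) to 0.54 (COL17A1).

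COL1A2 and COL8A2 gave the largest differences, and each is 1 chain of a collagen whose partner chain was also measured. COL1A2 (chromosome 7, 94394895 to 94431227, plus strand) encodes the α2 chain of type I collagen, the main fibre of skin, bone and tumour stroma. It stood at 11.1 and 11.9 CPM in the CD95L libraries, against 4.58 and 4.97 CPM in the vector libraries. These values rested on 255 and 267 reads against 114 and 125 reads. Both CD95L libraries were high and the groups did not overlap, nor did the exact Poisson 95% intervals of the single libraries, which ran from 9.81 to 12.6 and from 10.5 to 13.4 CPM in CD95L and from 3.77 to 5.50 and from 4.14 to 5.92 CPM in vector. The mean was 11.5 ± 0.52 CPM in CD95L and 4.77 ± 0.28 CPM in vector (SD, n = 2 each), a ratio of 2.41. The difference was 1.12 ± 0.24 (SE) on the log2(CPM + 1) scale (limma, unadjusted p = 0.000683, adjusted p = 0.355). edgeR gave a log2 fold change of 1.28 (adjusted p = 0.0161), and DESeq2 also 1.28 (adjusted p = 0.0209). The edgeR call held without vector replicate 2 (adjusted p = 0.0378) and was lost on leaving out CD95L replicate 1 (0.142), CD95L replicate 2 (0.181) or vector replicate 1 (0.297), while the limma difference stayed between 1.07 and 1.17. An antisense lncRNA overlaps the first exon region of COL1A2 in the GENCODE v44 annotation. The strand setting of the counting was not given, so reads of that overlap cannot be assigned to either gene. For the same reason the values of COL1A1, COL4A1, COL4A2, COL4A3, COL5A1, COL9A1, COL9A3, COL10A1, COL15A1, COL16A1, COL18A1 and COL19A1, whose exons are overlapped by a gene on the other strand, are uncertain.

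COL1A1 encodes the α1 chain and supplies the other 2 strands of the same helix. It stood at 18.4 and 19.2 CPM in the CD95L libraries, against 19.9 and 13.0 CPM in the vector libraries, so that the groups overlapped (difference 0.21 ± 0.27, SE, limma, adjusted p = 0.954). Per kb of exon, COL1A1 stood at 1.99 and 1.94 times COL1A2 in the CD95L libraries, against 5.22 and 3.14 times in the vector libraries. The ratio of the chains was therefore lower in both CD95L libraries, and 2 libraries against 2 cannot reach an exact permutation p below 0.333.

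COL8A2 (chromosome 1, 36095239 to 36125222, minus strand) encodes a chain of type VIII collagen, a short network collagen known from the corneal endothelium and vessel walls. It stood at 5.50 and 7.83 CPM in the CD95L libraries, from 126 and 176 reads, against 2.41 and 2.34 CPM in the vector libraries, from 60 and 59 reads. Here too the groups did not overlap. The ratio of the means was 2.80, and the difference was 1.17 ± 0.26 (SE) on the log2(CPM + 1) scale (limma, unadjusted p = 0.000783, adjusted p = 0.383). edgeR gave a log2 fold change of 1.49 (adjusted p = 0.0459) and DESeq2 of 1.49 (adjusted p = 0.0441). The edgeR call was lost without any 1 of the 4 libraries, with adjusted p = 0.142 and 0.505 on leaving out CD95L replicate 1 or 2, and 0.297 and 0.124 on leaving out vector replicate 1 or 2, and the limma difference ran from 0.95 to 1.39. No other annotated gene overlaps the exons of COL8A2. COL8A1, the partner chain, was too low to test, at 0.874 and 0.800 CPM from 20 and 18 reads in the CD95L libraries, against 0.482 and 0.358 CPM from 12 and 9 reads in the vector libraries. Its CD95L values were also the higher ones, but the counting intervals of the 4 libraries overlapped.

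**Figure D3:**
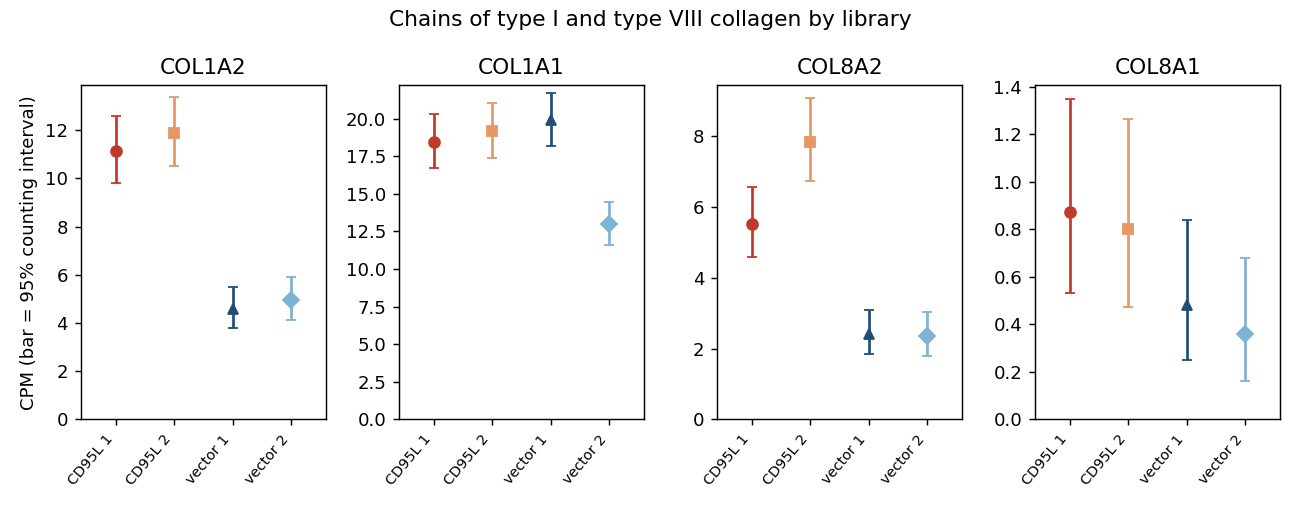
CPM of the chains of type I collagen (COL1A2, COL1A1) and type VIII collagen (COL8A2, COL8A1) in each library, CD95L left and vector right, with exact Poisson 95% counting intervals and axes that start at 0. COL1A2 and COL8A2 are higher in both CD95L libraries with intervals clear of the vector libraries, whereas the intervals of COL1A1 overlap between vector replicate 1 and both CD95L libraries.

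Among the 10 fibrillar genes, 9 differences were positive, with a median of 0.21 that turned to -0.11 without CD95L replicate 2. COL2A1 was measured at 230 and 459 CPM in the CD95L libraries, against 288 and 276 CPM in the vector libraries, so that 1 CD95L library lay below and the other above both vector libraries (difference 0.20 ± 0.32, SE, limma, adjusted p = 0.966). COL5A2 was likewise lowest in CD95L replicate 1 and highest in CD95L replicate 2, with 60.6 and 109 CPM in CD95L against 76.9 and 83.9 CPM in vector (difference 0.02, or -0.016 with the 10 most abundant genes left out of the totals). The chains that lead the collagen reads thus differed more between the CD95L libraries than between the groups. COL5A1, the other main chain of type V collagen, stood at 3.06 and 6.40 CPM against 4.17 and 4.37 CPM. Per kb it ran from 0.0331 to 0.0384 times COL5A2 in the CD95L libraries and from 0.0342 to 0.0356 times in the vector libraries. COL3A1, the fibre of vessels and granulation tissue, stood at 3.63 and 6.05 CPM in CD95L and 3.61 and 2.90 CPM in vector (difference 0.43). The groups did not overlap, although CD95L replicate 1 and vector replicate 1 were almost level. COL24A1 had 5.07 and 7.92 CPM against 4.62 and 4.89 CPM, and COL27A1, of growth plate cartilage, 8.08 and 13.8 CPM against 8.31 and 12.2 CPM. COL11A1, a minor chain of cartilage fibres, was the only negative one, with 2.18 and 5.29 CPM against 5.06 and 2.74 CPM. COL11A2 had 6.64 and 9.16 CPM against 6.74 and 5.84 CPM.

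Of the 9 network collagens, 7 were tested and 6 were positive (median 0.23, and -0.08 without CD95L replicate 2). The α1 and α2 chains of type IV collagen, which together form the common basement membrane network, went opposite ways without passing any test. COL4A1 stood at 2.49 and 3.20 CPM in the CD95L libraries, against 4.90 and 3.10 CPM in the vector libraries (difference -0.36), whereas COL4A2 stood at 12.3 and 21.8 CPM against 15.5 and 14.0 CPM (difference 0.15). COL4A1 per kb was 0.266 and 0.193 times COL4A2 in CD95L, against 0.416 and 0.291 times in vector. These genes lie head to head on chromosome 13 and their annotated exons overlap. COL4A5, a chain of the kidney and lung basement membrane, had 4.80 and 6.49 CPM in CD95L and 3.21 and 4.69 CPM in vector, without overlap (difference 0.43, limma, adjusted p = 0.923). COL4A3 stood at 5.37 and 6.36 CPM against 5.58 and 4.21 CPM, COL4A4 at 4.98 and 10.5 CPM against 4.90 and 6.95 CPM, and COL4A6 at 2.80 and 3.87 CPM against 3.09 and 2.94 CPM. COL10A1, the collagen of hypertrophic cartilage, was below the limit for testing at 0.699 and 0.934 CPM against 0.883 and 0.278 CPM.

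The 5 measured chains of type VI collagen, which forms beaded filaments around cells, and the related COL28A1 were split, with 3 positive and 3 negative differences (median 0.06, but -0.06 without CD95L replicate 2 and 0.25 without CD95L replicate 1). COL6A1 stood at 8.08 and 8.98 CPM in the CD95L libraries, against 11.8 and 9.06 CPM in the vector libraries, lower without overlap (difference -0.25 ± 0.25, SE, limma, adjusted p = 0.946). COL6A2, which lies next to it on chromosome 21, had 13.7 and 18.4 CPM against 15.0 and 12.2 CPM (difference 0.22). COL6A3 had 2.18 and 1.78 CPM against 2.61 and 2.27 CPM, also lower without overlap. Per kb, COL6A1 was 0.568 and 0.471 times COL6A2 in CD95L and 0.757 and 0.716 times in vector. COL6A6 was positive at 5.50 and 9.56 CPM against 6.70 and 3.66 CPM, with groups that overlapped, and COL28A1 at 1.18 and 1.65 CPM against 1.16 and 1.23 CPM, whereas COL6A5 (difference -0.010) stood at 4.02 and 6.003 CPM against 5.18 and 4.77 CPM.

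Of the 10 FACIT and related genes, 9 were tested and 7 were positive, with a median of 0.10 that was 0.18 without CD95L replicate 2. COL12A1, which decorates type I fibres, stood at 14.7 and 13.9 CPM in the CD95L libraries, against 12.6 and 10.2 CPM in the vector libraries (difference 0.31, limma, adjusted p = 0.932). COL20A1 had 6.64 and 8.85 CPM against 4.42 and 6.08 CPM (difference 0.49), and COL22A1, of tissue junctions, 5.59 and 7.87 CPM against 4.82 and 4.81 CPM (difference 0.40). The chains of type IX collagen, a cartilage FACIT, did not go one way. COL9A2 had 5.50 and 4.89 CPM in CD95L against 4.09 and 3.46 CPM in vector (difference 0.38). COL9A3 had 1.40 and 2.27 CPM against 3.13 and 2.42 CPM (difference -0.43), and both were without overlap. COL9A1 had 0.699 and 2.00 CPM against 0.763 and 0.0795 CPM, the last value below the 3-read floor. COL16A1 had 3.14 and 7.83 CPM against 4.86 and 4.57 CPM, with the vector libraries between the CD95L libraries. COL14A1 had 1.44 and 1.87 CPM against 1.89 and 2.03 CPM, lower without overlap (difference -0.16), while COL19A1 and COL21A1 overlapped between the groups.

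All 4 transmembrane collagens had a positive difference, though that of COL13A1 (0.01) turned sign under 1 scaling, and the median was 0.20. COL17A1 (chromosome 10, 104031286 to 104085880, minus strand) stood at 18.6 and 31.5 CPM in the CD95L libraries, against 16.0 and 16.7 CPM in the vector libraries. The groups did not overlap, but the mean of 25.0 ± 9.11 CPM in CD95L spread far more than that of 16.4 ± 0.53 CPM in vector (SD, n = 2 each), and the difference of 0.54 ± 0.29 (SE) did not pass (limma, adjusted p = 0.923, and edgeR, adjusted p = 0.582). COL13A1, a collagen of cell junctions, turned to -0.020 once the 10 most abundant genes were left out of the totals, and stood at 13.6 and 17.6 CPM against 15.4 and 15.3 CPM. COL25A1, which is known from neurons, had 3.84 and 3.78 CPM against 3.13 and 2.94 CPM. COL23A1 had 1.70 and 1.56 CPM against 1.61 and 1.15 CPM. COL26A1 (chromosome 7, 101362875 to 101559024, plus strand), which fits none of the classes, stood at 3.19 and 5.25 CPM in CD95L and 2.45 and 1.87 CPM in vector. Its difference of 0.70 ± 0.28 (SE) passed only the unadjusted threshold (limma, unadjusted p = 0.0261, adjusted p = 0.879, and edgeR, adjusted p = 0.659). COL7A1, which forms the anchoring fibrils under epithelium, had 7.08 and 11.7 CPM against 7.99 and 8.98 CPM (difference 0.10). COL18A1, the source of endostatin, had 6.99 and 9.96 CPM against 7.59 and 6.88 CPM (difference 0.19), and COL15A1, the other multiplexin, 1.35 and 2.49 CPM against 1.49 and 1.11 CPM.

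Genes that make, process, bind or degrade collagen were counted in the same fit, and none was called by limma, edgeR or DESeq2 in any list. Among 14 hydroxylases and glycosyltransferases, which modify the chains in the endoplasmic reticulum, 7 differences were positive and 7 negative (median 0.014, but -0.18 with 3 of 13 positive without CD95L replicate 2). P3H1, a prolyl 3-hydroxylase, had 2.75 and 3.11 CPM in the CD95L libraries, against 6.10 and 3.86 CPM in the vector libraries (difference -0.58, limma, adjusted p = 0.923). CRTAP, its partner in the same complex, had 5.11 and 5.20 CPM against 7.75 and 5.52 CPM (difference -0.30). Of 12 chaperone and secretion genes tested, 4 were positive and 8 negative (median -0.08). SERPINH1, the collagen chaperone HSP47, had 9.26 and 8.72 CPM against 9.95 and 11.2 CPM, and FKBP10, a prolyl isomerase, 2.10 and 2.05 CPM against 2.73 and 4.09 CPM. In these 2 lists no gene lay above both vector libraries in both CD95L libraries, beside 16.0% of all genes, and 4 and 5 genes lay below, beside 19.0%.

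Of 11 procollagen proteinases and crosslinking enzymes tested, 7 were positive (median 0.17). LOXL1, a lysyl oxidase that crosslinks fibres, had 1.97 and 3.51 CPM in CD95L and 0.923 and 1.71 CPM in vector (difference 0.68, limma, unadjusted p = 0.0384, adjusted p = 0.910), and was the only gene of these lists at an unadjusted p below 0.05. LOX had 2.32 and 2.05 CPM against 1.00 and 1.95 CPM, and BMP1, which cleaves the C-propeptide, 3.32 and 5.20 CPM against 3.21 and 3.06 CPM. Of 8 collagen receptors tested 5 were positive (median 0.09, but -0.15 with 2 of 7 positive without CD95L replicate 2), and of 4 degrading enzymes and inhibitors tested 2 were positive (median 0.0055), with MMP14, a membrane collagenase, at 3.54 and 4.54 CPM in CD95L against 7.71 and 4.81 CPM in vector. The 15 basement membrane partners were all tested and 13 were positive, with a median of 0.23, or 0.10 without CD95L replicate 2. Of the 15, 7 had both CD95L values above both vector values, which is 46.7% beside 16.0% of all genes, and none had both below, beside 19.0%. They included LAMA3 and LAMB3, chains of the laminin that pairs with COL17A1 at hemidesmosomes, with LAMA3 at 3.23 and 5.96 CPM against 3.13 and 2.35 CPM and LAMB3 at 10.8 and 13.2 CPM against 9.55 and 8.23 CPM.

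Markers of cell types were counted in the same way. KRT8, a keratin of simple epithelia, stood at 53.0 and 45.0 CPM in the CD95L libraries, against 55.2 and 58.1 CPM in the vector libraries, lower without overlap. KRT18 was also lower without overlap, at 52.80 and 52.78 CPM against 61.53 and 56.35 CPM. EPCAM and CDH1, which define epithelial cells, were detected in all 4 libraries, with EPCAM at 2.66 and 2.89 CPM against 2.33 and 3.26 CPM and CDH1 at 1.75 and 2.40 CPM against 2.49 and 1.31 CPM. KRT20 was near 0, at 0.0437 and 0.0889 CPM against 0.442 and 0.238 CPM. MUC2, an intestinal mucin, was higher without overlap, at 14.1 and 17.4 CPM against 12.2 and 9.18 CPM. The 12 epithelial genes together gave 150.4 and 159.5 CPM against 160.8 and 156.0 CPM, and 7 of the 10 tested were positive (median 0.09). The 12 fibroblast and mesenchyme genes summed to 59.7 and 67.1 CPM against 69.7 and 62.6 CPM, with 5 of 7 tested positive (median 0.19). Of these 7, 3 were higher and 1 lower without overlap, which is 42.9 and 14.3%, beside 16.0 and 19.0% of all genes. TWIST1, a mesenchymal transcription factor, had 16.1 and 17.4 CPM against 19.9 and 17.2 CPM, THY1, a surface protein of fibroblasts, 5.85 and 7.43 CPM against 5.78 and 5.52 CPM, and FBN1, of microfibrils, 3.84 and 8.45 CPM against 5.70 and 4.85 CPM. FN1, which encodes fibronectin, was higher without overlap at 3.84 and 5.07 CPM against 3.37 and 2.11 CPM (difference 0.56, limma, adjusted p = 0.923). LUM and DCN, which define fibroblasts, were at or near 0, with LUM at 0.655 and 0.222 CPM against 0 and 0.119 CPM and DCN at 0.349 and 0.311 CPM against 0.602 and 0.159 CPM. VIM, an intermediate filament gene that many cultured lines express, had 25.2 and 23.0 CPM against 31.3 and 30.0 CPM, lower without overlap. ACTA2, of smooth muscle and myofibroblasts, had 1.09 and 1.20 CPM against 0.281 and 0.119 CPM, higher in CD95L but too low to test. Endothelial genes summed to 50.0 and 76.0 CPM against 67.0 and 59.0 CPM, with 2 of 6 tested positive (median -0.10). That median was 0.22 with 5 of 6 positive without CD95L replicate 1, and 0.05 with 5 of 5 positive without vector replicate 1. Most of the endothelial sum was VWF alone, at 39.96 and 61.28 CPM against 54.02 and 48.4 CPM. The next highest endothelial gene was TEK, at 3.843 and 5.203 CPM against 3.412 and 3.537 CPM. Leukocyte genes summed to 16.7 and 24.0 CPM against 16.4 and 16.1 CPM (5 of 6 tested positive, median 0.23). No marker was called by limma, edgeR or DESeq2. The part of other cell types in the collagen values was not tested.

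The collagen genes were mostly higher in 1 of the CD95L libraries. CD95L replicate 2 was above CD95L replicate 1 for 34 of the 40 tested, which is 85.0% beside 62.6% of all genes, with a median log2 ratio of 0.42 beside 0.13. That was so for 10 of 10 fibrillar genes and 7 of 7 network collagens, and also for 14 of 15 basement membrane partners, 12 of 14 hydroxylases and glycosyltransferases, 7 of 8 receptors, 5 of 6 endothelial and 5 of 6 leukocyte genes, but for 4 of 12 chaperone and secretion genes. Between the vector libraries 27 of the 40 were higher in replicate 1, which is 67.5% beside 59.3% of all genes, with a median log2 ratio of 0.09 beside 0.08. The summed level was 524.9 and 895.4 CPM in the CD95L libraries, against 603.0 and 577.3 CPM in the vector libraries. As a mean it was 710 ± 262 CPM in CD95L and 590 ± 18.2 CPM in vector (SD, n = 2 each), a ratio of 1.20 that was 0.889 with CD95L replicate 1 alone and 1.52 with CD95L replicate 2 alone. Without COL2A1 and COL5A2 the other 41 genes summed to 234.3 and 327.5 CPM against 238.1 and 217.5 CPM, again highest in CD95L replicate 2. Collagen transcripts were rich in G and C, with a median GC content of 55.6% (40.8 to 67.4% over the 40 tested), beside 48.8% over 13174 protein-coding genes tested. When all protein-coding genes were cut into 4 equal bins by rising GC content, the median log2 ratio of CD95L replicate 2 to replicate 1 was 0.09, 0.14, 0.14 and 0.17. The 2, 9, 10 and 19 collagen genes in these bins had medians of 0.09, 0.48, 0.36 and 0.44. The part of GC content and of other transcript properties was not tested.

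**Figure D4:**
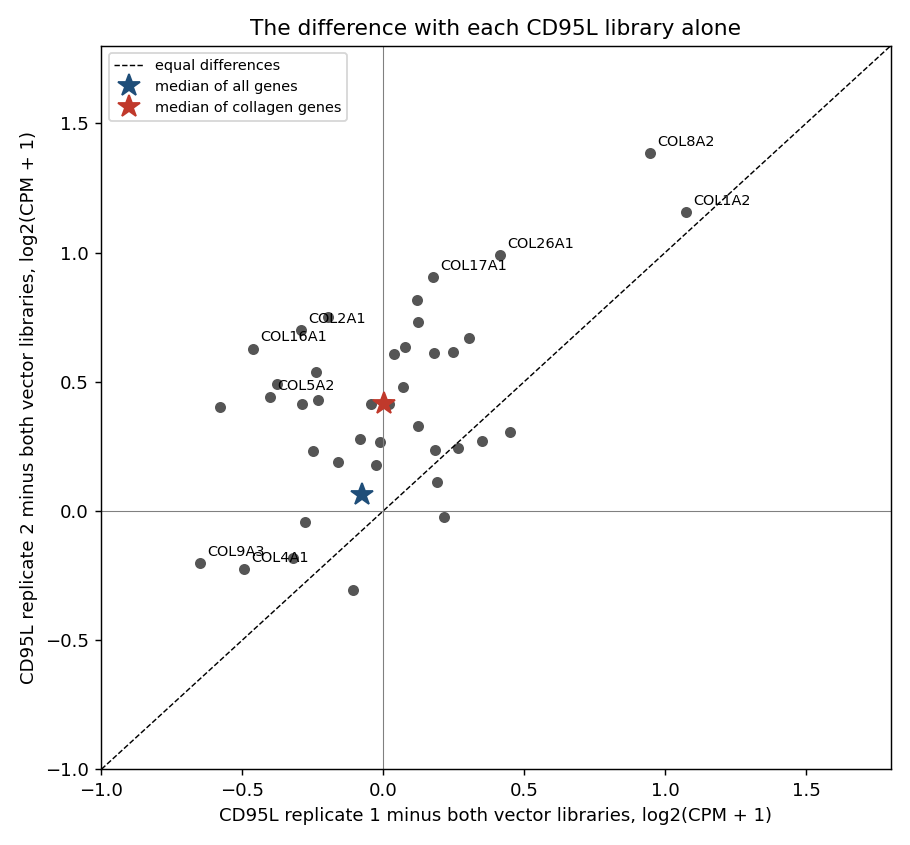
Difference of each of the 40 collagen genes with CD95L replicate 1 alone (x axis) and with CD95L replicate 2 alone (y axis), each minus both vector libraries in log2(CPM + 1), with stars for the medians of the collagen genes and of all genes. Most points lie above the dashed line of equal differences, the collagen median is 0.0035 on the x axis and 0.42 on the y axis, and COL1A2 and COL8A2 lie to the upper right with either library.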

How the data were processed

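Total small RNA from 2 CD95L and 2 vector libraries of HCT116 Drosha k.o. cells was analysed. Reads had been trimmed (TrimGalore), aligned to hg38 (TopHat, with Bowtie2 also named in the submitters' processing notes), counted by HTSeq and compared by edgeR, all by the authors. For versions, annotation and strand setting: not given in the sources used here. CPM per library were deposited by the authors. They also deposited 4 columns of their own comparison (average log2 CPM, log2 fold change, p-value and adjusted p-value), which were not used.

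The CPM values were whole multiples of 1 read (tolerance 0.01 read) for 100% of values, which gave back the read counts. Genes averaging 1 CPM or more were tested with limma 3.58.1 (R 4.3.3) on log2(CPM + 1), with group as the only term, two-sided, adjusted by Benjamini-Hochberg over 16127 genes. This scale understates changes of low genes. edgeR 4.0.16 (quasi-likelihood, TMM) called 8 genes higher and 64 lower on the recovered reads, and DESeq2 1.42.0 called 7 and 30. limma was the main test because the deposited unit was CPM, whereas the authors used edgeR. Exon length, GC content, overlaps and shared stretches came from GENCODE v44 and hg38, and microRNA sequences from RefSeq (GRCh38.p14). Python 3.11.15 was used.

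Members and lists were chosen with earlier results of these data known. Values in every library were given by rule for the 12 highest members, the 10 of smallest p, those called by any tool and their partner chains, and for up to 4 genes of smallest p per other list. The other members and list genes with values were chosen for their known roles after the values had been seen. The alternatives were other pseudocounts, filters, scalings and tests, a replicate block, and leaving out each library.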

Additional observations from a re-analysis of the deposited data

How the results depend on the processing

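None of the 40 collagen genes was called by limma in the main analysis. One setting called 1 (replicate block in limma, COL8A2) and 3 called 2 (edgeR, DESeq2 and replicate block in edgeR, COL1A2 and COL8A2). Leaving out each library gave 0 by limma and 0 to 1 by edgeR, the 1 being COL1A2 without vector replicate 2. A library left alone in its group was assumed to vary like the others. Over all genes, calls higher and lower were 1 and 0 by limma, 8 and 64 by edgeR, 7 and 30 by DESeq2, 1 and 28 with a mean-variance trend, 9 and 71 with the replicate block in limma, and 23 and 75 with it in edgeR. Over the genes tested, same-numbered libraries did not deviate together (correlation -0.00198). That value cannot show whether the duplicates were handled as pairs. The median difference ran from 0.0035 to 0.42 by limma and from 0.09 to 0.39 by edgeR when each library was left out, and the difference of the summed CPM from -65.2 to 305 CPM.

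With the 10 most abundant genes left out of the total, COL13A1 turned to -0.020 and COL5A2 to -0.016. Leaving out each library turned the sign of 17 of the 40 members by limma in at least 1 fit. Of the 20 members named by rule 7 turned, with differences that ran from -0.16 to 0.19 (COL13A1), from -0.079 to 0.50 (COL1A1), from -0.29 to 0.41 (COL27A1), from -0.29 to 0.70 (COL2A1), from -0.24 to 0.54 (COL4A2), from -0.40 to 0.44 (COL5A2) and from -0.23 to 0.43 (COL7A1), and of the other 20 members 10 turned. By edgeR the 7 turned without CD95L replicate 2 to -0.075 (COL13A1), -0.26 (COL27A1), -0.20 (COL2A1), -0.16 (COL4A2), -0.32 (COL5A2) and -0.17 (COL7A1), without vector replicate 1 to -0.0057 (COL13A1), -0.21 (COL27A1) and -0.035 (COL5A2), and without vector replicate 2 to -0.025 (COL1A1). The cause was not tested.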

Other observations

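MicroRNA genes lie inside several of these collagen genes, and their listed values were low. miR-936 lies in an exon of COL17A1 and miR-711 in an exon of COL7A1, both on the strand of the host, and their mature sequences are shown with the seed (bases 2 to 8) in capitals because a read of the microRNA is also a read of the collagen exon.
miR-936: aCAGUAGAgggaggaaucgcag
miR-711: gGGACCCAgggagagacguaag
miR-6815-5p: uAGGUGGCgccggaggagucauu
In GRCh38.p14 they lay at chr10:104048151-104048172 (minus strand), chr3:48578914-48578935 (minus strand) and chr21:45478271-45478293 (plus strand), in this order. MIR936 was listed at 0 in all 4 libraries, and MIR711 at 0.306 and 0 CPM in the CD95L libraries and at 0 CPM in both vector libraries. How the counting treated reads that lie in a microRNA and its host exon was not given, so a value of 0 here does not show absence. MIR6815, in an intron of COL18A1, stood at 1.35 and 2.54 CPM in CD95L against 5.38 and 2.62 CPM in vector, while COL18A1 itself stood at 6.99 and 9.96 CPM against 7.59 and 6.88 CPM. The 3 microRNAs share no seed. The counts are per gene and do not separate the 2 arms of MIR6815.

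COL5A3, which was left out of the collagen set, stood at 22008 and 38600 CPM in the CD95L libraries, against 27256 and 27580 CPM in the vector libraries. The reads of COL2A1 came to 1.05 and 1.19% of those of COL5A3 in CD95L, against 1.06 and 1.00% in vector, and the reads of COL5A2 to 0.275 and 0.283% against 0.282 and 0.304%. The order of the CD95L libraries was that of COL2A1 and COL5A2. What the 3 genes share was not tested.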
